A study of Mus musculus with 3 samples.

Results

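Open chromatin regions called only in the PDGFB-WT library of a mouse glioma series were described here by position, nearest genes, counts and barcodes. Peaks of the 3 libraries that overlapped by at least 1 bp were merged on chromosomes 1 to 19, X and Y. A merged region was kept when it held a PDGFB-WT peak and no peak of PDGFB-NLS or Control. This gave 6015 regions, which were 4.09% of all 147229 merged regions and 10.5% of the 57206 regions with a PDGFB-WT peak. Each held a single PDGFB-WT peak. Of the others, 47450 regions were called in all 3 libraries, 31427 in PDGFB-NLS only and 14458 in Control only.

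The tumors were made by in utero electroporation of piggyBac plasmids, in which a transposon carries DNA into cells of the embryonic brain. Nuclei were profiled by single-cell ATAC-seq, which marks accessible DNA by the cuts of the Tn5 transposase. PDGFB-WT was overexpressed in 1 library and PDGFB-NLS in another, the remaining one was labelled Control, and all 3 carry the tissue label glioma. The labels give no strain, age, sex, promoter or number of animals, do not spell out NLS and do not say whether the Control tissue was a tumor. With 1 library per group, no difference between groups has a replicate check, no p-value is given, and the intervals below cover counting error only.

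PDGFB is a secreted growth factor that binds the receptor tyrosine kinases PDGFRA and PDGFRB. In the brain, PDGFRA is a hallmark of oligodendrocyte precursor cells (OPCs), and PDGFB expression in neural progenitors is widely used to make gliomas in mice. Tn5 cuts most readily at promoters and enhancers freed of nucleosomes, while cuts elsewhere form a low background over the whole genome.

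After barcodes under 200 counts were left out, PDGFB-WT had 7441 barcodes with a median of 821 counts in peaks, and 7008951 counts in all. PDGFB-NLS had 10996 barcodes with a median of 2767.5 counts, and Control had 2226 with a median of 13054. The totals were 31177621 and 31588784 counts, so PDGFB-WT was the shallowest library. Of its barcodes, 118 (1.59%) also occurred in PDGFB-NLS and 22 (0.296%) in Control. Counts were deposited only for a library's own peaks, so the signal of PDGFB-NLS and Control inside these regions is unknown.

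The promoters inside the strongest PDGFB-WT-only regions are shown first, because they let a reader see what these regions cover at gene starts and how 1 of them ends inside a promoter. Each line gives the 250 bases before a transcription start, 5′ to 3′ on the gene's strand, from the RefSeq promoter table of GRCm38.p6. Capitals mark bases that lie inside the PDGFB-WT-only region. The lines are Cep95 (chr11:106789002-106789251, plus strand), Sall1 (chr8:89043513-89043762, minus strand), Rhog (chr7:102250119-102250368, minus strand) and Slc35e4 (chr11:3914665-3914914, minus strand).
Cep95: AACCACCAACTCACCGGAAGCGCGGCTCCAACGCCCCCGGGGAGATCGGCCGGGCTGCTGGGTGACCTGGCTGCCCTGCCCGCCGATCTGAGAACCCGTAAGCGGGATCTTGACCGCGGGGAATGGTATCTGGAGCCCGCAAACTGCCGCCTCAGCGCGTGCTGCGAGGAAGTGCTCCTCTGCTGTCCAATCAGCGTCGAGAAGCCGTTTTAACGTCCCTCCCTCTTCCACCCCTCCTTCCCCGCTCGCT
Sall1: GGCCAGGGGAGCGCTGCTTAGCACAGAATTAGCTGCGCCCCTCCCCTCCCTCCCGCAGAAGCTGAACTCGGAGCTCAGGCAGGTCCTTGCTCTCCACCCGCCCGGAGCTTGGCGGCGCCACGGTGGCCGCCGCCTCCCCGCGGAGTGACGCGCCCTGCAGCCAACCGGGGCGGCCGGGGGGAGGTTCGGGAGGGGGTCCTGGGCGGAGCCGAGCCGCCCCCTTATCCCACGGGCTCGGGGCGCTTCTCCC
Rhog: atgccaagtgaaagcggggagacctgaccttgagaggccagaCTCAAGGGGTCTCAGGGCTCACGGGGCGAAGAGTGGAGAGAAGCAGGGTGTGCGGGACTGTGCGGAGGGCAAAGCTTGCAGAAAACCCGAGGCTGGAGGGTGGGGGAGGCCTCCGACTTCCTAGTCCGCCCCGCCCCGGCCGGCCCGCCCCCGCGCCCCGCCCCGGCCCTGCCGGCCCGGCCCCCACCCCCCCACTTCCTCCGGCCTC
Slc35e4: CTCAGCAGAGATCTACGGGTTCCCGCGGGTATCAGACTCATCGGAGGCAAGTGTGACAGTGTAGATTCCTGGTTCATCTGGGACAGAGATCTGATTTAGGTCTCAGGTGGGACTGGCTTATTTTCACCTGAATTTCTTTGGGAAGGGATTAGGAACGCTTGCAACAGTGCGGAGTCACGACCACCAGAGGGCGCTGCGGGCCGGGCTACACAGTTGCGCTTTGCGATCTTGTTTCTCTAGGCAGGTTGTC

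All 250 bases lay inside the region for Cep95, Sall1 and Slc35e4, and 208 of 250 for Rhog. The GC content of these 4 stretches was 65.6% for Cep95, 74.4% for Sall1, 72% for Rhog and 53.6% for Slc35e4. The lower-case start of the Rhog line is the end of the stretch that faces peaks of the other libraries. The Control peak began 9 bp beyond the PDGFB-WT-only region there and the PDGFB-NLS peak 16 bp beyond it.

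The strongest PDGFB-WT-only region covered the shared promoter of Ddx5 and Cep95 on chromosome 11 (mm10 106788381 to 106789466). Ddx5 encodes an RNA helicase, and Cep95 a centrosomal protein. The region held 1252 counts, or 660 fragments from 613 barcodes, which is 186 CPM (counts scaled to a total of 1000000 in regions called in all 3 libraries). It alone held 1.26% of all counts in PDGFB-WT-only regions. The nearest Control peak lay 579 bp away with 29.6 CPM in Control, and the nearest PDGFB-NLS peak lay 8421 bp away with 49.7 CPM in PDGFB-NLS. The next strongest region, inside Hnrnpl (an RNA-binding protein that acts in splicing), held 295 counts.

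Several of the strong regions lay beside strong peaks of the other libraries. The Hnrnpl region lay 124 bp from a Control peak of 128 CPM and 114 bp from a PDGFB-NLS peak of 128 CPM. At Sall1, a zinc-finger transcription factor gene, the region of 168 counts lay 86 bp from a Control peak of 63.0 CPM. Its distance to a PDGFB-NLS peak of 60.2 CPM was 68 bp. The region at Pcgf2, a Polycomb group gene, held 166 counts and lay 193 bp from a Control peak of 84.9 CPM. Rhog, which encodes a small GTPase, had a region of 146 counts, and Slc35e4 one of 100 counts, 67 bp from a Control peak of 63.4 CPM. Each of these PDGFB-WT-only regions also had another PDGFB-WT peak within 201 bp.

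At other named regions the nearest peaks of both other libraries were weaker in CPM than the region. These were Paqr7, Tmem267, Sema4c, Fgfr2, Tspoap1 and the Ddx5 and Cep95 promoter. The margin was small at Fgfr2, with 20.5 CPM against 17.0 in Control and 17.8 in PDGFB-NLS. At Tnrc6b and Bcl9l the nearest peak was weaker in Control but not in PDGFB-NLS. At Paqr7 (a progestin receptor gene) the region held 125 counts, or 18.5 CPM, and the nearest Control and PDGFB-NLS peaks held 2.99 and 2.44 CPM in their libraries. The region inside Tnrc6b, which encodes a protein of microRNA silencing, held 152 counts (22.5 CPM) and lay 234 bp from a Control peak of 3.34 CPM. Its nearest PDGFB-NLS peak, 618 bp away, held 44.5 CPM. At Tmem267 the region spanned 2055 bp with 151 counts (22.4 CPM). Its nearest Control peak lay 1365 bp away at 3.57 CPM and its nearest PDGFB-NLS peak 5295 bp away at 2.61 CPM. The other regions among the 12 with most counts lay at Sema4c (181 counts), Bcl9l (169), Fgfr2 (138) and Tmcc2 (127). Sema4c encodes a semaphorin, a class of guidance molecules, and Fgfr2 a fibroblast growth factor receptor. Among regions within 1000 bp of a gene end, Pcdh17 (125 counts), a protocadherin gene, and Tspoap1 (108) came next.

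The threshold of the rule cuts through a run of similar peaks. Inside it, 120 PDGFB-WT-only regions lay under 100 bp from a peak of another library and held a median of 25 counts. Just outside it, 123 PDGFB-WT peaks overlapped another library's peaks by 1 to 100 bp and held a median of 23 counts. Regions this close were few: 5541 of 6015 lay at least 500 bp from any such peak, and 2335 (38.8%) lay at least 20 kb away. The median distance was 11794 bp.

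Beyond the named ones, PDGFB-WT-only regions were sparse. The median region held 13 counts, 7 fragments from 7 barcodes and 1.93 CPM. Regions called in all 3 libraries held a median of 79 counts and 11.7 CPM in PDGFB-WT. Widths hardly differed, with medians of 864 and 895 bp. Of the 6015 regions, 18 held no fragment in the kept barcodes, 1326 held 1 to 4, 2850 held 5 to 9, 1484 held 10 to 19, 308 held 20 to 49 and 29 held 50 or more. In 5389 regions (89.6%) every barcode with a fragment held exactly 1. Among the 1821 regions with at least 10 fragments, the leading barcode supplied a median of 8.33% of the fragments and at most 30%, so no region of that size rested on 1 barcode.

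On the scaled level these regions were close to the private regions of the deeper libraries. Regions called in Control only had a median of 1.86 CPM in Control, and those called in PDGFB-NLS only had 1.95 CPM in PDGFB-NLS. A region of 1.93 CPM would hold 49.7 counts in Control and 47.3 in PDGFB-NLS. Of the PDGFB-WT-only regions, 90.8% lay above the 5th percentile of the Control-only regions (0.853 CPM), and 85.9% above that of the PDGFB-NLS-only regions (0.977 CPM). As a whole, PDGFB-WT-only regions held 99231 counts, which is 1.42% of the counts of that library, against 2.75% in Control-only regions of Control and 5.69% in PDGFB-NLS-only regions of PDGFB-NLS.

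PDGFB-WT-only regions mostly lay between protein-coding genes. Within 1000 bp of an end of a protein-coding gene lay 236 regions, or 3.92% (exact 95% interval 3.45 to 4.45). Another 2045 (34.0%) lay inside a gene and 3734 (62.1%, 60.8 to 63.3) lay between genes. These shares depend on the definition, since 9.74% lay at a gene end and 51.1% between genes when all genes of the table were used, and 11.6% and 58.3% with a distance of 5000 bp. Of the regions called in PDGFB-WT and another library, 26.6% lay at a gene end and 33.0% between genes. Private regions of the other libraries were also rare at gene ends, at 6.33% in Control and 5.70% in PDGFB-NLS, but lay between genes in 37.4% and 38.9% of cases. The median distance to a gene end was 49773 bp for PDGFB-WT-only regions, 20850.5 bp for Control-only regions and 27251 bp for PDGFB-NLS-only regions. More than 100 kb from any gene end lay 35.3% of the PDGFB-WT-only regions and 11.1% of the regions shared with another library.

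**Figure D1:**
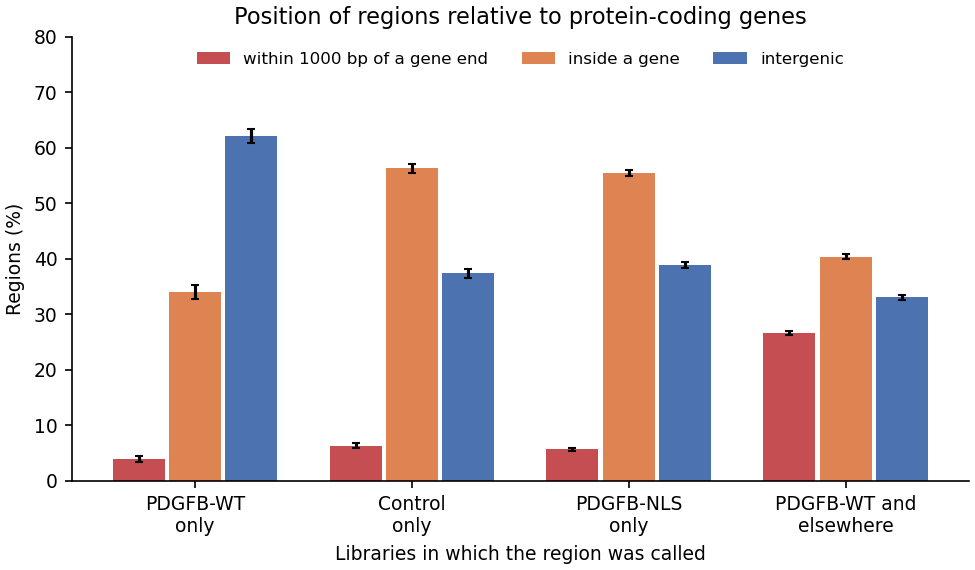
Share of regions (%, vertical axis) within 1000 bp of a gene end, inside a protein-coding gene or intergenic, for 4 sets of regions (horizontal axis). Bars are shares of regions and error bars are exact 95% intervals. The intergenic bar is the tallest in the PDGFB-WT-only set (62.1%), while genes hold most regions in the other private sets.

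The position of a PDGFB-WT-only region depended on its size. The intergenic share was 70.3% for regions with 1 to 4 fragments, 67.4% for 5 to 9, 52.2% for 10 to 19, 29.5% for 20 to 49 and 17.2% for 50 or more. Over the same bins the gene-end share was 1.58%, 2.77%, 4.99%, 16.9% and 34.5%. Small regions, with the larger numbers, therefore set the shares over all 6015, and the named promoter regions are exceptions.

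The distribution over chromosomes differed too. Chromosome X held 340 PDGFB-WT-only regions, or 5.65% (5.08 to 6.27), against 2.03% of the regions PDGFB-WT shared with another library, 2.42% of Control-only regions and 1.73% of PDGFB-NLS-only regions. The gene-rich chromosomes 11 and 19 held 4.41% and 1.78% of PDGFB-WT-only regions, against 7.39% and 3.12% of the shared ones. Chromosome length was not taken into account, so these shares compare sets of regions and give no density per Mb. The first 1 Mb of assembled sequence (3 to 4 Mb) of chromosomes 1 to 19 and X, which adjoins the centromere in mouse, held 74 PDGFB-WT-only regions. That is 3.70 per window against 2.35 per window over all windows. The chromosome 11 window alone held 18 of the 74, and without it the value was 2.95 per window over the other 19 chromosomes. Control-only regions stood at 5.85 per window there against 5.65 over all windows, and PDGFB-NLS-only regions at 8.65 against 12.3. Without chromosome 11 these sets stood at 5.21 and 8.42.

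In bins of 1 Mb, PDGFB-WT-only regions were spread widely, with at least 1 in 2215 of the 2560 windows that held any region. The 284 windows with 5 or more held 1724 of them. The densest window, on chromosome 5 from 15 to 16 Mb, held 24 and contains Speer4d and Speer4c, of a multicopy family expressed in testis. The next, on chromosome 11 from 3 to 4 Mb, held 18 and contains Sfi1. It also held 38 regions called in all 3 libraries, 18 called in Control only and 13 in PDGFB-NLS only, whereas the chromosome 5 window held 5, 5 and 0. The window on chromosome 3 from 93 to 94 Mb held 16 and contains 6 Tdpoz genes among its 17 protein-coding genes. It also held 10 regions of all 3 libraries, 1 of Control only and 5 of PDGFB-NLS only. That on chromosome 8 from 20 to 21 Mb, which contains the defensin gene Defb33, held 12, beside 4, 2 and 2. The window on chromosome X from 31 to 32 Mb held 12 PDGFB-WT-only regions and contains Btbd35f and Spin2 genes. No region called in all 3 libraries, in Control only or in PDGFB-NLS only fell there. Where the regions lie relative to the genes of the chromosome 3, 8 and X windows is not given here. Near-identical copies make read placement uncertain in these gene families, and how the authors handled reads with several matches is not given in the sources used here.

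Genes held PDGFB-WT-only regions in proportion to their length. Of 21883 protein-coding genes, 1800 held at least 1 such region in the gene body or the 2 kb on either side, a background of 8.23%. The share was 1.59% of genes under 10 kb and 76.5% of genes of 500 kb or more. Per Mb of gene span the density was nearly flat, with 2.05 regions in genes under 10 kb, 1.85 from 10 to 50 kb, 2.19 from 50 to 200 kb, 2.33 from 200 to 500 kb and 2.17 in the longest genes. Regions called in PDGFB-WT and another library fell from 84.3 to 10.7 per Mb over the same classes.

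**Figure D2:**
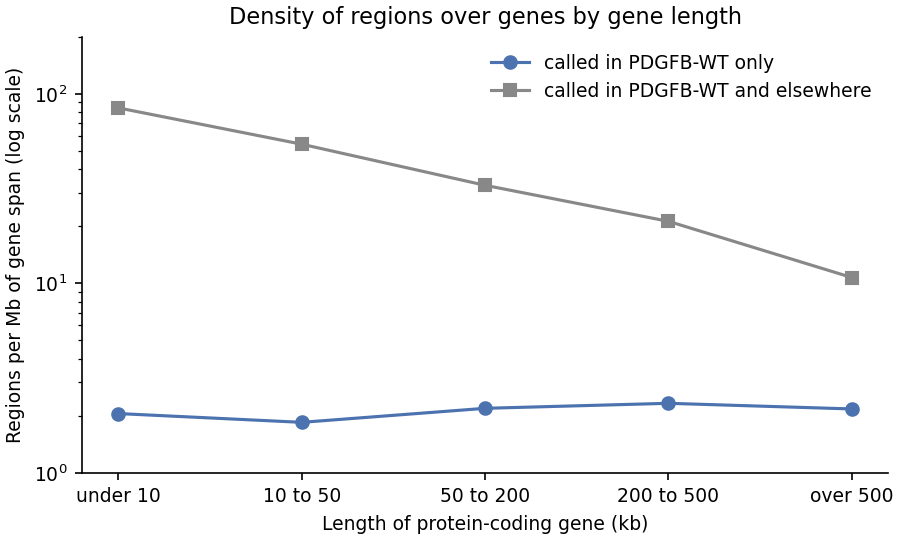
Regions per Mb of gene span (log scale, vertical axis) in 5 classes of protein-coding gene length (kb, horizontal axis). Points are densities over all genes of a class. PDGFB-WT-only regions stay between 1.85 and 2.33 per Mb, while regions called in PDGFB-WT and elsewhere fall from 84.3 to 10.7 per Mb.

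The genes with most PDGFB-WT-only regions were accordingly long, with Sfi1 as the exception. Sfi1, a centrin-binding centrosome gene of 71.5 kb, held 11 regions (146 per Mb). Cntnap2, a neurexin family adhesion gene of 2241 kb, held 9, and Csmd1 and Ctnnd2 (delta-catenin, a neuronal adhesion protein) held 7 each. Etl4 held 6, and Nkain3, Dlg2 (a postsynaptic scaffold) and Spag16 (a protein of the sperm axoneme) held 5 each. Among genes of at least 20 kb, Sfi1 was followed in density by 2410141K09Rik (111 per Mb), Wtap (101) and Ifi202b (82.4), with 2 or 3 regions each. Gclm (77.7), Kbtbd11 (76.0), Agxt2 (71.9) and Gm42346 (69.7) came after them.

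For several gene lists a density per Mb is given beside the share, because longer genes more often held a region. Among PDGF and receptor tyrosine kinase signalling genes, 8 of 39 held a PDGFB-WT-only region, with 2.12 per Mb against 2.13 per Mb over all protein-coding genes. Of the 4 ligand and 2 receptor genes of the PDGF family, Pdgfd alone held one, of 15 counts. Pdgfra and Pdgfb held none, although 5 and 3 regions shared with another library lay in them. Of the other receptors, Ntrk2 (the BDNF receptor) held 3, and Fgfr2, Egfr, Erbb4 and Met held 1 each. Etv5, a transcription factor downstream of receptor signalling, held 1 of 36 counts.

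Axon guidance and synaptic adhesion genes, with a median length of 791 kb, held such regions in 36 of 55 cases but at 1.94 per Mb. Cntnap2 and Csmd1, described above, are among them. Glutamate and GABA receptor genes did so in 13 of 33 cases at 2.19 per Mb. Glial and neural transcription factor genes held them in 9 of 45 cases at 2.06 per Mb. Of the 25 chromosome segregation and spindle checkpoint genes none held one, over a span of 1.04 Mb. None of the 12 AP-1 genes did (span 0.166 Mb). The DNA damage and repair list had 3 of 26, which were Atrx, Prkdc and Xrcc6, and the cohesin and condensin list had 2 of 21, Stag1 among them.

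Among marker lists, 7 of 18 OPC markers held a PDGFB-WT-only region, at 3.20 per Mb, with 3 in Sox6 and 2 each in Xylt1 and Dscam. Over all protein-coding genes the values were 8.23% of genes and 2.13 per Mb. Neural progenitor markers stood at 4 of 18 and 5.19 per Mb, from 1 region each in Nes (76 counts), Sox4 (56 counts), Egfr (25 counts) and a further gene. Of the microglia or macrophage markers 1 of 18 held a region, and of the erythroid markers 0 of 12. Excitatory neuron markers stood at 6 of 18, astrocyte and inhibitory neuron markers at 2 of 18, endothelial markers at 2 of 18 and oligodendrocyte markers at 1 of 18. The mural or fibroblast list had 1 of 18, the lymphocyte list 2 of 17 and the ependymal list 4 of 16. In density the lymphocyte list (3.42 per Mb) exceeded the OPC list. Excitatory neuron (2.997), ependymal (2.62) and astrocyte markers (2.55) also lay above 2.13 per Mb. Below it were endothelial (1.75), inhibitory neuron (1.60), microglia or macrophage (1.51), mural or fibroblast (1.49), oligodendrocyte (1.01) and erythroid markers (0). With so few regions per list, these densities move by large steps with a single region.

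At promoters the PDGFB-WT-only regions were few and poor in CpG. Windows from 250 bases before to 50 after a transcription start were overlapped by 92 of the 6015 regions (1.53%), at 96 genes. The median GC content of these 109 windows was 49.7%, against 52.7% over all 32851 windows and 61.7% in windows overlapped by regions called in all 3 libraries. The median ratio of observed to expected CpG was 0.284, against 0.384 and 0.769. It was 0.256 for windows overlapped by Control-only and 0.337 for those overlapped by PDGFB-NLS-only regions, so low CpG was shared by the private sets. The promoters printed above are therefore not typical, since 3 of the 4 exceed the 61.7% GC of the widely called ones. At the 192 gene-end regions whose gene has a strand in the promoter table, 110 (57.3%) lay at the start of the gene and the rest at its far end.

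Short motifs occurred in these promoter windows at shares close to those of all promoters. The AP-1 letters TGANTCA, searched on both strands, occurred in 8.26% of the 109 windows and in 7.81% of all 32851. The SOX core ACAATG or its reverse complement occurred in 14.7% and 12.6%, and the E-box CAGCTG in 16.5% and 16.3%. The NFI palindrome occurred in none of the 109 and in 0.0365% of all windows. CCCTC, a short part of the CTCF motif, occurred on either strand in 65.1% and 66.0%. A match is a description of letters and no evidence of binding.

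The barcodes behind the PDGFB-WT-only regions were then examined. PDGFB-WT barcodes were clustered on regions called in all 3 libraries, so that the PDGFB-WT-only regions took no part. This gave 6 clusters. Cluster 1 (2217 barcodes) was microglia or macrophage-like, with all 16 detected markers of that list above their level in the other clusters. Cluster 2 (1936 barcodes) was OPC-like with 17 of 18 markers above, and cluster 3 (1262 barcodes) astrocyte-like with 17 of 17. Clusters 4 (775 barcodes), 5 (656) and 6 (595) did not meet the full naming rule and stayed unnamed. In cluster 5 astrocyte markers led, with a median log2 difference of 0.76 from the other clusters and 16 of 17 above. None of them stood among its 10 leading genes. Cluster 5 counts among the others in the astrocyte-like folds below. The naming threshold was set after seeing the data.

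PDGFB-WT-only fragments were concentrated in clusters 4 and 6. These regions took 5.85% of the fragments of cluster 4 and 6.24% of cluster 6, against 0.788% in the microglia or macrophage-like, 0.915% in the OPC-like and 0.926% in the astrocyte-like cluster, and 1.45% in cluster 5. Together, clusters 4 and 6 had 1370 barcodes (18.4%) and 10.6% of all fragments, but 43.9% of the PDGFB-WT-only fragments. Their pooled share was 6.04% (5.96 to 6.11) against 0.917% (0.907 to 0.928) in the other clusters, a ratio of 6.58. The 2 clusters were singled out after their values were seen. A share of at least 5% occurred in 860 of the 1370 barcodes and in 52 of the 6071 others.

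These barcodes also differed in depth and in the kind of counts. The median was 360 counts in cluster 4 and 474 in cluster 6, against 665.5 to 1147.5 in the others. In the 1370 barcodes together it was 407.5, against 932. Within a narrow range of depth the gap remained. For barcodes of 200 to under 300 counts the share was 8.94% in clusters 4 and 6 (397 barcodes) and 1.69% in the others (393 barcodes). For 1000 to under 2000 counts it was 3.19% (132 barcodes) and 0.885% (2329 barcodes). Entries of value 1, a single cut site, made up 12.1% and 13.1% of entries in clusters 4 and 6 and 7.17% to 9.30% in the others. In regions called in all 3 libraries, 42.9% and 40.9% of the fragments of clusters 4 and 6 lay at gene ends, against 50.1% to 59.4% elsewhere. The part of these differences in the PDGFB-WT-only calls was not tested.

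**Figure D3:**
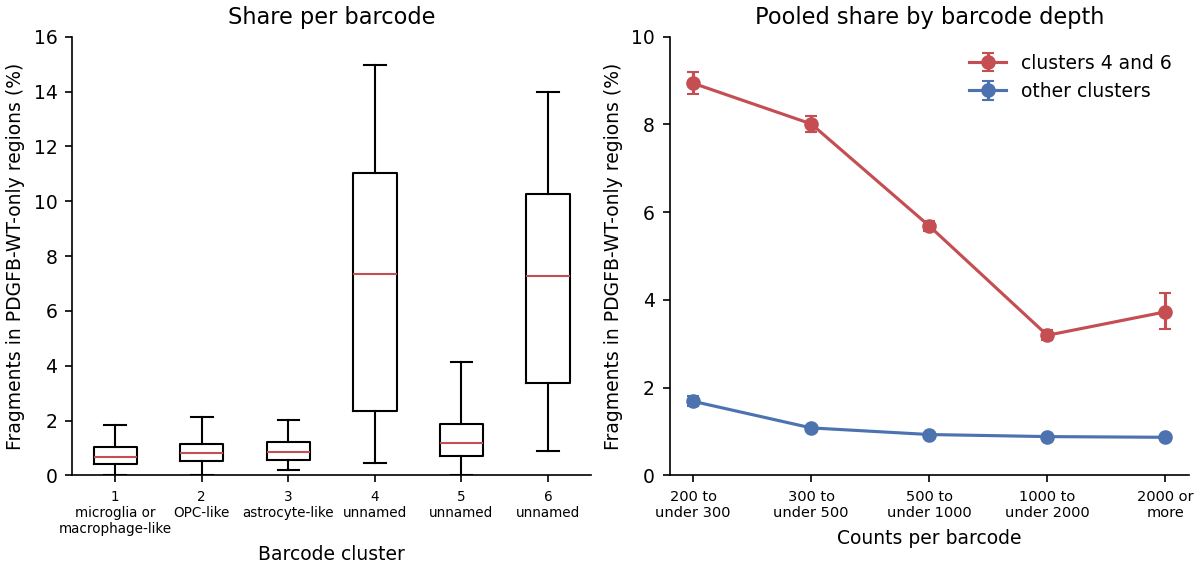
Left, share of a barcode's fragments in PDGFB-WT-only regions (%, vertical axis) by cluster (horizontal axis), with the median as a line, quartiles as the box and the 5th and 95th percentiles as whiskers. Right, the pooled share (%, vertical axis) by counts per barcode (horizontal axis) with exact 95% intervals, where clusters 4 and 6 lie above the other clusters in each depth class (8.94% against 1.69% at 200 to under 300 counts).

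Marker lists gave clusters 4 and 6 no clear identity. In cluster 4 the highest median log2 difference from the other clusters was 0.54, for endothelial markers (8 of 11 above), followed by 0.50 for inhibitory neuron markers. In cluster 6 it was 0.62 for inhibitory neuron markers (6 of 10 above), followed by 0.43 for endothelial markers (11 of 11 above). By comparison it was 1.74, 1.34 and 1.18 for the lists that named clusters 1, 2 and 3. OPC markers were above in 13 of 18 and 14 of 18 cases, and microglia or macrophage markers in 9 of 16 and 8 of 16. No marker of the leading list stood among the 10 genes that led either cluster. No doublet caller was run, and the part of doublets in these clusters was not tested.

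Shallow barcodes carried PDGFB-WT-only fragments at a higher share in the library as a whole. With PDGFB-WT barcodes split by depth into 4 groups of about equal number, from shallow to deep, the share was 4.28%, 1.93%, 1.13% and 0.967%. The same measure for PDGFB-NLS-only regions in PDGFB-NLS lay between 5.50% and 6.09%, with the lowest value in the shallowest group. For Control-only regions in Control it was 3.78%, 3.29%, 2.62% and 2.71%. The range was thus widest in PDGFB-WT, though the groups of the 3 libraries cover different depths (200 to 468 counts in the shallowest group of PDGFB-WT, 400 to 1877 in PDGFB-NLS and 201 to 5672.25 in Control).

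The origin of the fragments also followed the size of the region. In PDGFB-WT-only regions of 5 to 9 fragments, 56.7% (56.0 to 57.4) came from clusters 4 and 6, against 29.2% (27.3 to 31.1) in regions of that size called in all 3 libraries. At 10 to 19 fragments the values were 42.6% and 20.2%, and at 20 to 49 fragments 20.7% and 13.9%. At 100 fragments or more they were 6.30% (4.90 to 7.97) and 8.09% (8.05 to 8.13), for 4 and 9527 regions. Regions called in PDGFB-WT and Control lay between at 5 to 9 fragments (46.0%), as did those called in PDGFB-WT and PDGFB-NLS (34.0%). At 10 to 19 fragments the PDGFB-WT and Control set stood at 29.7%, below the PDGFB-WT-only set. From 20 fragments up the PDGFB-WT and Control set was no lower than the PDGFB-WT-only set. It stood at 20.9% at 20 to 49 fragments, and at 16.3% against 12.5% at 50 to 99 fragments.

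**Figure D4:**
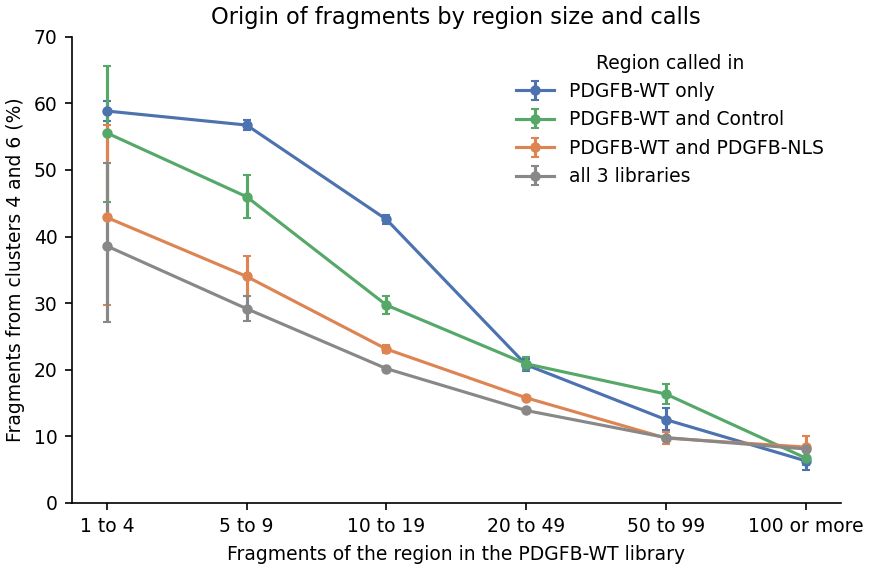
Percent of a set's fragments that came from clusters 4 and 6 (vertical axis) by the number of PDGFB-WT fragments in the region (horizontal axis), for 4 sets of regions. Points are pooled shares with exact 95% intervals. PDGFB-WT-only regions lie highest from 5 to 19 fragments (56.7% and 42.6%), and the sets come together at 100 fragments or more.

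Position and origin went together, in sets that were not matched for region size. Clusters 4 and 6 supplied 24.3% of the fragments of PDGFB-WT-only regions at gene ends, 38.0% inside genes and 51.3% between genes. They supplied 20.5% in regions under 100 bp from another library's peak and 57.0% in regions at least 20 kb away. On chromosome X the value was 56.1%, against 43.3% on the other chromosomes. In the 5 densest windows it was between 55.6% and 66.4%. Regions under 100 bp from another library's peak held a median of 14 fragments, and those at least 20 kb away 7. Both the intergenic share and the share from clusters 4 and 6 fell with region size, so position and size are not separated here.

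When clusters 4 and 6 were left out, 56.1% of the PDGFB-WT-only fragments remained. The median per region was then 3 barcodes and 0.985 CPM, against 7 barcodes and 1.93 CPM with all clusters. At least 5 fragments were left in 1899 of the 6015 regions (31.6%), against 99.7% of the regions called in all 3 libraries. These sets differed in size from the start, with medians of 7 and 41 fragments over all clusters. Before any cluster was left out, 18 of the 6015 regions held no fragment and 1326 held 1 to 4. Of these 1899 regions 46.4% lay between genes, 7.42% at gene ends and 3.84% on chromosome X. At least 20 fragments were left in 195 regions, of which 23.1% lay at gene ends and 22.1% between genes. These subsets were chosen after seeing the data.

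The named regions drew mainly on clusters 1 to 3, with 1 exception. Of the 660 fragments at the Ddx5 and Cep95 promoter, 264 came from the microglia or macrophage-like, 154 from the OPC-like and 140 from the astrocyte-like cluster, and 6.82% from clusters 4 and 6. The Tspoap1 region drew 49 of 61 fragments from the microglia or macrophage-like cluster. The Fgfr2 region drew 47 of 74, and the Paqr7 region 49 of 66, from the astrocyte-like cluster. At Pcdh17, 32 of 67 came from the OPC-like cluster and 2 from the microglia or macrophage-like one. The Tmem267 region was the exception, with 66.2% of its 77 fragments from clusters 4 and 6.

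**Figure D5:**
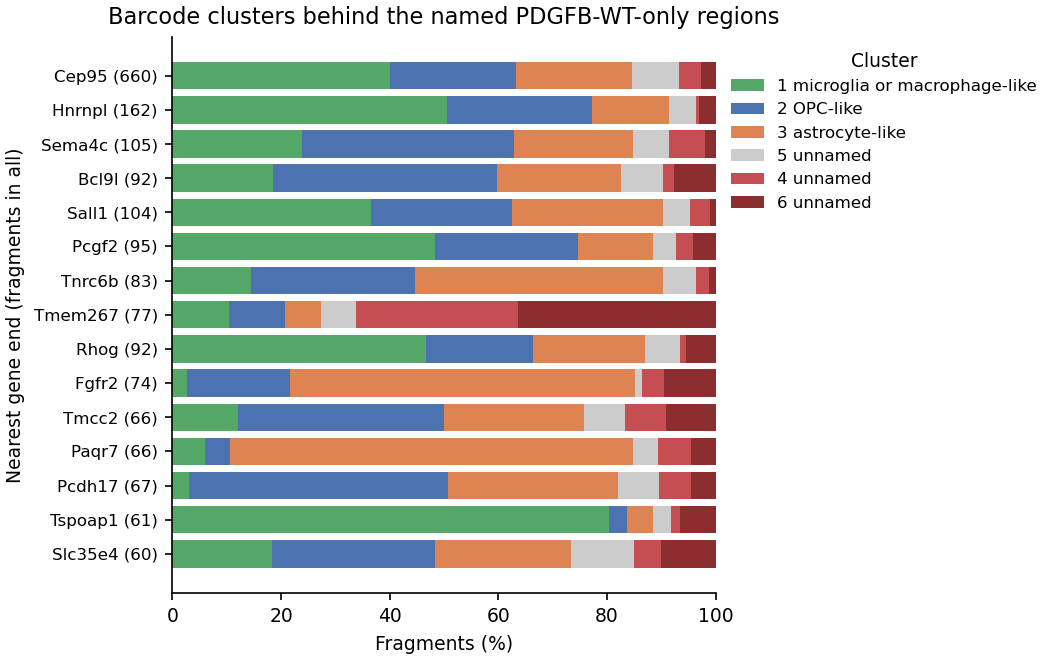
Percent of fragments (horizontal axis) from each barcode cluster for the 15 named PDGFB-WT-only regions (vertical axis, by nearest gene end with the number of fragments; Cep95 is the promoter shared with Ddx5). Clusters 4 and 6 supply 66.2% at Tmem267 and at most 16.7% at the other regions.

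Only 337 of the 6015 regions reached 20 fragments, the minimum for a fold between clusters, and these are not representative of the rest. Over 2-fold higher in astrocyte-like barcodes than in the others were 82 of them (24.3%), against 16.7% of all 45160 PDGFB-WT regions with at least 20 fragments. The sets were not matched for size above that minimum. Of the 337 regions 308 held 20 to 49 fragments, while 9527 regions called in all 3 libraries held 100 or more. For OPC-like barcodes the values were 62 (18.4%) and 17.3%, and for microglia or macrophage-like barcodes 34 (10.1%) and 15.6%. For clusters 4 and 6 they were 156 (46.3%) and 16.6%. These clusters were picked for their high share of PDGFB-WT-only fragments, so an excess there was fixed in advance and is no further support. Some of these regions also reached 20 fragments only through clusters 4 and 6. The OPC share lay near its background, the microglia or macrophage share below it and the astrocyte share above it. Clusters 4 and 6 count among the others in each of these 3 folds. At 20 to 49 fragments they supplied 20.7% of PDGFB-WT-only fragments and 13.9% in regions called in all 3 libraries. The shares therefore cannot show whether PDGFB-WT-only regions favour or avoid a named cluster.

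The regions with the highest folds in each named cluster were traced to their nearest genes. In microglia or macrophage-like barcodes they lay by Zfp36l1 (an mRNA decay factor, 35 of 42 fragments, 11.5-fold), Dtnbp1 (19 of 23, 10.9-fold), Tspoap1 (9.38-fold), Osbpl11 and Cep43 (6.89-fold each). In OPC-like barcodes the nearest genes were Esp38 (20 of 23, 15.3-fold), Baz2b (21 of 25), Inpp5f (23 of 28, 10.6-fold), Lnx1 (10.3-fold) and Slc30a5 (8.80-fold). The Esp38 region lay 109130 bp from that gene and 199348 bp from any peak of another library. In astrocyte-like barcodes they were Gdi2 (23 of 29, 13.3-fold), Usp12 (21 of 28) and Fam13c (15 of 20) at 10.4-fold each, Paqr7 (9.99-fold) and Mrpl19 (9.05-fold). With 20 to 66 fragments per region, each fold is imprecise.

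In clusters 4 and 6 the 5 regions with the highest folds lay between 29882 and 391375 bp from a gene end, against a median of 49773 bp for all PDGFB-WT-only regions. The region inside 2210408I21Rik drew 25 of 30 fragments from them (45.3-fold) and lay 108466 bp from any peak of another library. Those nearest to Alkbh8 (36.3-fold), Sfi1 (35.1-fold) and Olfr161 (32.6-fold) lay in the first assembled Mb of chromosomes 9, 11 and 16, and the remaining one was nearest to Nbea (35.0-fold), at the greatest distance. The Sfi1 region was the one at 29882 bp. These 5 were chosen after their values were seen.

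Regions called in all 3 libraries had slightly higher ratios of PDGFB-WT to the other libraries near PDGFB-WT-only regions than farther away. There were 8567 of them within 50 kb of a PDGFB-WT-only region. Their median log2 ratio of PDGFB-WT to Control was 0.19, against 0.12 in those farther away. For PDGFB-WT to PDGFB-NLS the medians were 0.13 and 0.08. The level in PDGFB-WT itself was not higher nearby, with medians of 11.6 CPM nearby and 11.9 CPM farther away. In Control these medians were 9.43 and 10.4 CPM, and in PDGFB-NLS 10.3 and 11.1 CPM. The comparison is between the same libraries as the rule that chose the regions, so it is a description.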

How the data were processed

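Nuclei of mouse gliomas went through single-cell ATAC-seq on the 10x Chromium system (kit v2), per the labels. The deposited matrices hold raw counts per peak and barcode from cellranger-atac 2.1.0, per the file headers. Cell Ranger 8 and the build mm10 are named in the submitters' processing notes. How peaks and cells were called is not given in the sources used here. Most entries had the value 2 (89.4% in PDGFB-WT), so counts were read as cut sites and an entry v as (v + 1) // 2 fragments.

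Barcodes under 200 counts were left out, and CPM was scaled to counts in regions called in all 3 libraries. Gene positions are those of RefSeq for GRCm38.p6, in a table without strand, with 21883 protein-coding genes on these chromosomes. PDGFB-WT barcodes were clustered on 12588 peaks called in all 3 libraries and open in at least 1% of barcodes. This used TF-IDF, singular value components 2 to 30, 15 neighbours and Leiden resolution 0.6 (scanpy 1.11.5, igraph 0.11.9, Python 3.11.15). A cluster took a marker list's name if the list's median log2 difference reached 0.5, at least 3 of its markers were detected and 1 or more of them, no fewer than of any other list, stood among the 10 leading genes. No doublet caller was run. Intervals are exact Clopper-Pearson at 95% (scipy 1.17.1). The merging, positions, folds and clustering were checked on simulated data.

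The named regions and genes were the 12 regions with most counts, the 8 at gene ends with most counts and the 5 with the highest fold in each named cluster. Also named were the 8 genes with most regions, the 8 genes of at least 20 kb with most per Mb, up to 3 genes per list (some are not reported here) and the 5 densest 1 Mb windows. PDGF ligand and receptor genes, other members of their list and clusters 4 and 6 were named outside this rule. The regions and lists were chosen with earlier results of these data known. Alternatives covered the merging, barcode and count minimums, gene distance, cluster resolution and scaling.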

Additional observations from a re-analysis of the deposited data

Results flagged for a closer look

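Signal appeared in data that the comparisons did not use. PDGFB-WT-only regions took 8.49% (exact 95% interval 7.86 to 9.15) of the fragments of the 70 PDGFB-WT barcodes under 200 counts, which were left out. The share in the kept barcodes was 1.46%.

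Peaks on unplaced contigs, also left out, held 0.138% of the PDGFB-WT counts, against 0.103% in Control and 0.0764% in PDGFB-NLS. In PDGFB-WT they held 0.411% (0.391 to 0.431) of the fragments of clusters 4 and 6 and 0.108% (0.105 to 0.112) of those of the other clusters.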

How the results depend on the processing

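No paired analysis was possible because each group had 1 library. Of 41 recomputed values, 12 stayed within 1.5 times (counts of regions and regions per window) or within the interval of the value given (others), and 29 moved further. None changed sign, but only the log2 ratios could have done so. The number of PDGFB-WT-only regions was 1505 at 20 counts or more and 149 at 50 or more. The intergenic share was 58.3% with a gene-end distance of 5000 bp, 51.1% with all genes of the table, 44.7% and 26.8% for regions of at least 20 and 50 counts, 64.2% for regions at least 500 bp from any other peak and 46.4% for regions with at least 5 fragments outside clusters 4 and 6. The gene-end share was 6.25% and 11.6% at 2000 and 5000 bp, and 9.74%, 8.57%, 25.5%, 2.83% and 7.42% under the other 5 settings in that order. Median CPM per region was 0.927 in barcodes of at least 1000 counts, 1.85 scaled over all own peaks and 0.985 without clusters 4 and 6. Median barcodes per region were 2 and 3 in the first and last of these. Clusters with over 2 times the overall share held 44.8% of the PDGFB-WT-only fragments at resolution 1.0, 29.9% in barcodes of at least 500 counts and 48.0% without the top 5% of barcodes. Genes with a region made up 7.58% without flank, 11.0% with 10 kb, 3.68% for regions of at least 20 counts and 7.12% for regions at least 500 bp from any other peak. The median log2 ratio of PDGFB-WT to Control nearby was 0.17 at 200 kb and 0.43 scaled over all own peaks, where it was 0.37 over all regions. The settings without clusters 4 and 6 and without the chromosome 11 window were chosen after seeing the data. The cause of each move was not tested, except that count minimums leave fewer regions. At a median of 7 fragments, single regions cannot be compared between clusters.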
